A study of Homo sapiens with 9 samples.

Results

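Collagens other than type IV were taken as every gene whose symbol is COL, a number, A and a number, without the 6 COL4A genes, which gave 38 of the 26364 genes in the count tables. RNA was sequenced from the human line MDA-MB-231, derived from a breast adenocarcinoma without hormone receptors, grown in serum-containing DMEM and transduced with a pLVX lentivirus in every group. The empty vector group carried pLVX alone, the MEL-18 WT group carried wild-type MEL-18, and the MEL-18 T334A group carried MEL-18 in the T334A form, which the submitters describe as unable to be phosphorylated at that site, with 3 libraries in each. MEL-18 is the Polycomb group RING finger protein encoded by PCGF2. The labels call the replicates biological but do not say whether they came from separate transductions, so p-values reflect spread among cultures that may be technical, and the construct cannot be told apart from the transduced line that carries it.

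Collagens are secreted or membrane-bound proteins whose chains wind in groups into a helix, and each numbered type has its own chain or chains. Fibrillar collagens (such as types I, III, V and XI) form the banded fibrils of connective tissue. Type VIII and type X build open networks, type VI forms beaded microfilaments around cells, type VII anchors epithelia to the underlying stroma, and FACIT collagens attach to the surface of fibrils. Transmembrane collagens (types XIII, XVII, XXIII and XXV) span the plasma membrane of the cell that makes them and can be shed from it, and multiplexins (types XV and XVIII) sit in or near basement membranes. In carcinomas much of the fibrillar collagen is made by fibroblasts of the stroma, which a pure cell line lacks.

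Of the 38 collagens, 22 had enough counts to be tested and 16 did not. COL14A1 and COL25A1 passed the filter on low counts through 1 group alone, in which they were high, so their passing and their change are not independent. The libraries held 31643722 to 37005302 counts, and 14738 genes were tested. PCGF2 stood at 22.2 to 23.8 CPM (read counts normalised to library size) in the vector libraries, at 1279 to 1292 CPM with MEL-18 WT and at 1389 to 1451 CPM with MEL-18 T334A (means differ 0.14 on the log2 scale between the MEL-18 groups), so it checks the vector label but cannot tell the MEL-18 forms apart. The line's labelled epithelial type was only partly borne out: KRT8, KRT18, VIM, CD44 and EGFR together reached 2808 to 3018 CPM, while ESR1, PGR and CDH1 had under 10 counts in every library. The whole list of 6 luminal markers, which also holds EPCAM, KRT19 and GATA3, summed to 97.3 to 104 CPM with the vector, 123 to 125 with MEL-18 WT and 133 to 140 with MEL-18 T334A, and EPCAM and KRT19 were called higher in both MEL-18 groups than with the vector. Fibroblast markers summed to 10.1 to 10.8 CPM with the vector, 10.0 to 11 with MEL-18 WT and 10.2 to 14.0 with MEL-18 T334A, with DCN, LUM, THY1 and POSTN under 10 counts in every library. Of that list, PDGFRB was called higher and FBLN1 lower in both MEL-18 groups. Endothelial and leukocyte markers summed to 2.77 to 2.93 CPM with the vector, 1.28 to 1.90 with MEL-18 WT and 0.705 to 1.40 with MEL-18 T334A. The part of these markers in the collagen results was not tested. In bulk RNA, a larger share of cells making a transcript and more transcript per cell cannot be told apart.

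Levels were compared between genes as CPM per kilobase of merged exons. In the vector libraries the order was COL13A1, COL6A1, COL12A1, COL18A1, COL6A2, COL8A1, COL5A1 and COL27A1. COL13A1 alone stood at 63.8 ± 0.52 CPM per kilobase (SD, n = 3), ahead of COL6A1 at 19.8 ± 0.67. COL12A1 and COL18A1 were close neighbours in this order, at 10.5 ± 0.08 and 10.2 ± 0.24 CPM per kilobase, and their libraries did not overlap, at 10.5 to 10.6 and 9.97 to 10.4. Next came COL6A2 at 9.24 ± 0.34, COL8A1 at 5.41 ± 0.27, COL5A1 at 3.4 ± 0.06 and COL27A1 at 2.72 ± 0.13 CPM per kilobase. The other 30 members were at or below the 1.53 ± 0.10 of COL9A2. Transmembrane collagens made up 48.8% to 49.7% of the summed level per length of all 38 genes in the vector libraries, type VI 21.6% to 23.1% and fibrillar collagens 6.17% to 6.47%.

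**Figure D1:**
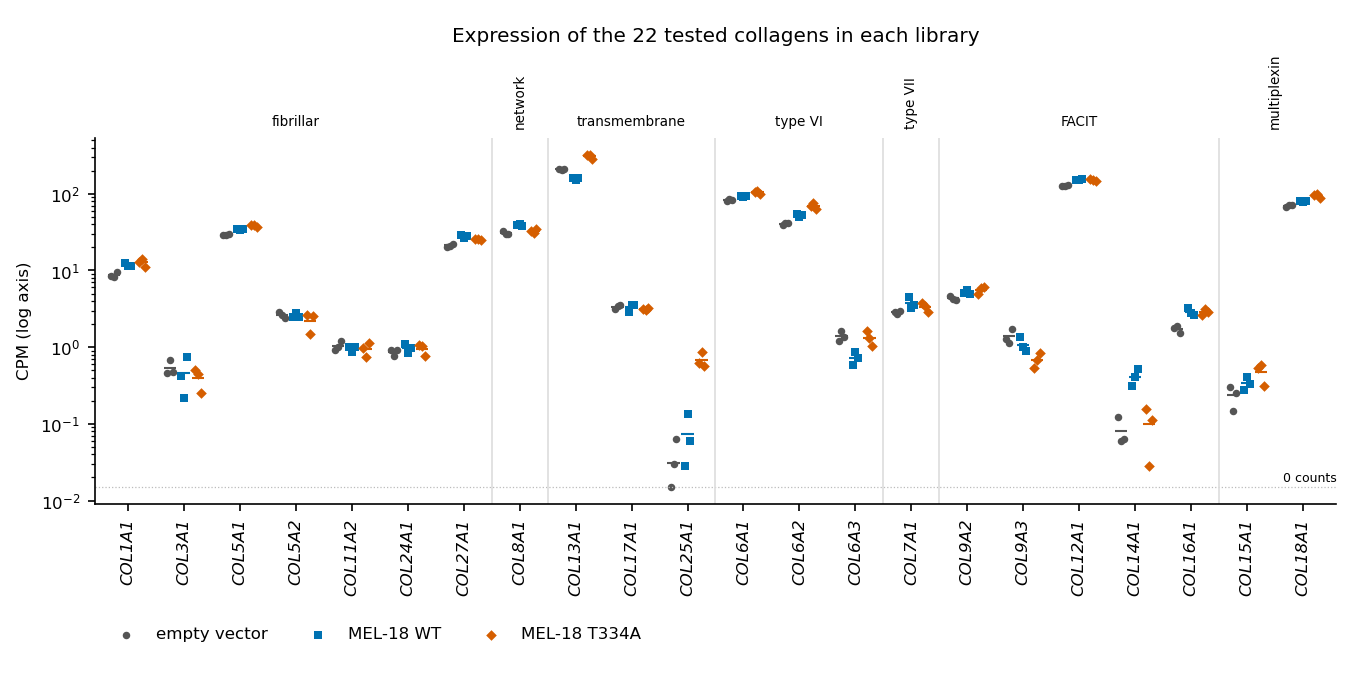
Level of the 22 tested collagens in CPM (log axis) in each of the 9 libraries, grouped by class; points are libraries and short lines are group means, and a library with 0 counts sits on the dotted line. COL13A1 is the highest of these genes in every library, but nearly level with COL12A1 in MEL-18 WT replicate 2 (152.80 against 152.74 CPM). COL14A1 and COL25A1 reach 10 counts in the libraries of 1 group each.

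Promoters of 26 of the 38 members were used, as RefSeq promoter windows of 300 bases. These run from 250 bases before to 50 after a transcript start (GRCh38.p14, not the build of the counts). A member without a window here may still have one in that source. The windows of COL13A1, COL25A1, COL6A2 and COL16A1 are printed as examples from the transmembrane, type VI and FACIT classes. They lie at chr10:69801656-69801955 (plus strand), chr4:109302609-109302908 (minus strand), chr21:46097862-46098161 (plus strand) and chr1:31703968-31704267 (minus strand), and read 5′ to 3′ along the gene. Capitals mark GGGCGG, the GC box bound by Sp1 family factors, and TATAAA, each searched on both strands with overlaps allowed.
COL13A1: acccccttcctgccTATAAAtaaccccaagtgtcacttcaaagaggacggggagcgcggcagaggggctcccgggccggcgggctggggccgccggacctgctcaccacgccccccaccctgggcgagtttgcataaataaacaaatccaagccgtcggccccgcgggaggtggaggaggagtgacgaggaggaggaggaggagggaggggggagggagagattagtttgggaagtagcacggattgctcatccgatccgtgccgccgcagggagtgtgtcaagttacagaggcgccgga
COL25A1: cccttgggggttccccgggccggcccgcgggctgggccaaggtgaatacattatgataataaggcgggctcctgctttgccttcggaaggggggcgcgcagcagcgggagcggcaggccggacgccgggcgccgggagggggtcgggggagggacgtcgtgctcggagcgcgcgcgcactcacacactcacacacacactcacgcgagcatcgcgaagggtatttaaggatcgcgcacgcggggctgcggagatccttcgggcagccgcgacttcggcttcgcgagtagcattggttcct
COL6A2: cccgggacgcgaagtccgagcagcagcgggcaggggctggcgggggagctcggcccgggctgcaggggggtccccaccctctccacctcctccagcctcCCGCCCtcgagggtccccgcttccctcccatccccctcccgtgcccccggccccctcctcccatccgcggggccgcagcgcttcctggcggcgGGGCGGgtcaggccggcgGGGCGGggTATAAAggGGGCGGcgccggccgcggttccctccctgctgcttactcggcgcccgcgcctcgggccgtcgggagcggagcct
COL16A1: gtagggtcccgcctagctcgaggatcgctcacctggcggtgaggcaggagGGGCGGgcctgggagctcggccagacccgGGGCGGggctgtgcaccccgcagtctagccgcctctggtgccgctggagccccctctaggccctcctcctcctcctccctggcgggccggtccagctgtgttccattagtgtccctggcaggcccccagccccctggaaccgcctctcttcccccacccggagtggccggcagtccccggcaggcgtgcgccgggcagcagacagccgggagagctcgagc
COL6A2 held 4 GC boxes and 1 TATAAA, COL16A1 held 2 GC boxes, COL13A1 held 1 TATAAA, and COL25A1 had neither motif in its window. The 4 windows held 22 CpG in COL13A1, 38 in COL25A1, 36 in COL6A2 and 22 in COL16A1. The median was 14 over 35116 windows of all genes and 22 over the windows of tested collagens. Of the 37 collagen windows used, 20 (54.1%) held a GC box and 8 (21.6%) a TATAAA, against 45.0% and 11.5% of all windows. The collagen windows and the windows of all genes may not have been selected alike, so no difference is drawn from these shares. Windows of 15 of the 22 tested members had a median of 22 CpG, and those of 11 members with too few counts had a median of 11.5. Tested members without a window here were COL1A1, COL3A1, COL5A2, COL6A1, COL8A1, COL9A3 and COL14A1. The medians are over windows, and some genes had more than 1.

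Among fibrillar collagens, the cells made COL5A1, COL27A1 and COL1A1, and each of these was higher in both MEL-18 groups than with the vector. Of 11 fibrillar genes 7 were tested. In each comparison with the vector 3 (42.9%) were called higher and the other 4 were not called, where 28.8% of all tested genes were called for MEL-18 WT (14.4% higher) and 45.9% for MEL-18 T334A (23.4% higher). Counting calls in either direction, the fibrillar share for MEL-18 T334A lay near the background. The comparisons share the vector libraries, so they are not independent of each other. COL1A1, the major chain of type I collagen, stood at 8.54, 8.30 and 9.53 CPM in the vector libraries, at 12.6, 11.3 and 11.5 CPM with MEL-18 WT and at 12.8, 14.2 and 11.1 CPM with MEL-18 T334A. All 6 MEL-18 libraries lay above the vector libraries, and the MEL-18 groups overlapped. Its log2 fold change against the vector was 0.43 ± 0.08 (SE) for MEL-18 WT (adjusted p = 0.000212) and 0.54 ± 0.08 for MEL-18 T334A (adjusted p = 5.63e-06), and 0.11 ± 0.08 between the MEL-18 groups (adjusted p = 0.282). Without MEL-18 T334A replicate 3 the last difference was 0.20 and was called (adjusted p = 0.0258).

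COL5A1, a chain of type V collagen that helps to start fibrils, stood at 28.8, 28.7 and 29.6 CPM with the vector, 34.7, 33.8 and 35 CPM with MEL-18 WT and 38.7, 39.3 and 37.0 CPM with MEL-18 T334A. The 3 groups did not overlap. COL5A1 rose by 0.25 ± 0.04 with MEL-18 WT (adjusted p = 3.09e-05) and by 0.40 ± 0.04 with MEL-18 T334A (adjusted p = 7.33e-09) on the log2 scale. The nearest expressed genes around COL5A1 on chromosome 9 (20 to either side) had median log2 fold changes of -0.09 and 0.16 in these comparisons, and with that shift taken out the second change was 0.25 (adjusted p = 1.53e-05). Between the MEL-18 groups COL5A1 was called higher with MEL-18 T334A by 0.15 ± 0.04 (adjusted p = 0.00273) beside neighbours at 0.24, and with their shift taken out the sign turned to -0.08 (adjusted p = 0.124). COL27A1, a fibrillar collagen of cartilage that is also on chromosome 9, stood at 20.4, 21.0 and 22.3 CPM with the vector, 29, 26.5 and 28.0 CPM with MEL-18 WT and 25.6, 25.7 and 24.9 CPM with MEL-18 T334A. It rose by 0.39 ± 0.05 with MEL-18 WT (adjusted p = 4.80e-07) and by 0.26 ± 0.05 with MEL-18 T334A (adjusted p = 8.75e-05), so that the 3 groups did not overlap and MEL-18 WT was highest. The difference between the MEL-18 groups, -0.13 ± 0.05 (adjusted p = 0.0269), was not called with DESeq2 (adjusted p = 0.0830), with library totals in place of TMM factors (0.0692), without MEL-18 WT replicate 1 (0.143) or 3 (0.0752), or without MEL-18 T334A replicate 1 (0.0531) or 3 (0.0654), and was -0.32 with the neighbours' shift taken out.

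The partner chains of COL1A1 and COL5A1 were scarce. COL1A2, the second chain of type I collagen, had 16, 0 and 0 counts in the vector libraries, 0, 1 and 4 with MEL-18 WT and 7, 3 and 1 with MEL-18 T334A, so that its 16 vector counts came from replicate 1. COL5A2, the partner of COL5A1 in type V collagen, stood at 2.65 ± 0.24, 2.56 ± 0.20 and 2.21 ± 0.62 CPM in the vector, wild-type and T334A groups and was not called, and COL3A1, the chain of type III collagen and the neighbour of COL5A2 on chromosome 2, had 8 to 25 counts per library and was not called. Per length, COL5A1 exceeded COL5A2 9.15 ± 0.95-fold with the vector, 11.2 ± 1.02-fold with MEL-18 WT and 15.4 ± 5.51-fold with MEL-18 T334A, the last spread resting on the low COL5A2 of MEL-18 T334A replicate 2. COL11A2 and COL24A1, at 0.74 to 1.21 CPM in every library, were not called in any comparison. COL2A1, COL5A3 and COL11A1 had at most 7 counts in any library and were not tested.

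Among network collagens, COL8A1 was the expressed chain and was highest with MEL-18 WT. COL8A1, a chain of the type VIII collagen of vessel walls and the cornea, stood at 32.7, 29.7 and 30.3 CPM with the vector, 39.4, 40.5 and 38.1 CPM with MEL-18 WT and 33.1, 31.1 and 35 CPM with MEL-18 T334A. The MEL-18 WT libraries lay above the other 6, and the vector and MEL-18 T334A libraries overlapped. COL8A1 rose by 0.35 ± 0.05 with MEL-18 WT against the vector (adjusted p = 1.39e-06), and was lower with MEL-18 T334A than with MEL-18 WT (-0.25 ± 0.05, adjusted p = 6.40e-05). The last difference was -0.13 (adjusted p = 0.0275) with the shift of its neighbours, which had a median of -0.13, taken out. Between MEL-18 T334A and the vector the difference was 0.10 ± 0.05 (adjusted p = 0.0965), which was called with library totals (0.14, adjusted p = 0.0187), with the neighbours' shift taken out (0.25, adjusted p = 1.70e-04), without empty vector replicate 1 (0.14, adjusted p = 0.0290) and without MEL-18 T334A replicate 2 (0.15, adjusted p = 0.0216). COL8A2 had at most 4 counts in any library. COL10A1, the type X collagen of hypertrophic cartilage, had 3 to 10 counts, and its MEL-18 T334A to vector ratio of summed counts was 1.42 (exact 95% interval 0.73 to 2.87, counting error only).

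Among transmembrane collagens, COL13A1 moved in opposite directions with the constructs. COL13A1, a membrane collagen of focal adhesions and of the neuromuscular junction, stood at 208, 205 and 208 CPM with the vector, at 160, 153 and 163 CPM with MEL-18 WT and at 316, 324 and 286 CPM with MEL-18 T334A. The groups did not overlap, with MEL-18 WT lowest and MEL-18 T334A highest. COL13A1 fell by 0.39 ± 0.04 with MEL-18 WT (adjusted p = 4.39e-09) and rose by 0.58 ± 0.04 with MEL-18 T334A (adjusted p = 5.71e-13) on the log2 scale. MEL-18 T334A cells held 1.95-fold the level of MEL-18 WT cells (log2 fold change 0.96 ± 0.04, adjusted p = 1.67e-17). Neighbours of COL13A1 on chromosome 10 had medians of -0.01, 0.18 and 0.17 in these comparisons, and with their shift taken out the changes were -0.39, 0.40 and 0.79 (highest adjusted p = 5.69e-09). As 1 gene, COL13A1 took 32% to 32.8% of all counts of the 38 collagens with the vector, 23.2% to 24.0% with MEL-18 WT and 35% to 36.3% with MEL-18 T334A.

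COL25A1, a transmembrane collagen of neurons that is also found in amyloid plaques, was near the detection limit with the vector and MEL-18 WT and was detected in every MEL-18 T334A library. It had 0, 1 and 2 counts with the vector, 1, 5 and 2 with MEL-18 WT and 20, 31 and 20 with MEL-18 T334A. The summed counts of MEL-18 T334A were 22.5 times those of the vector (exact 95% interval 7.38 to 111, counting error only) and 9.11 times those of MEL-18 WT (interval 4.38 to 21.9), after scaling by library size. No p is given, and the intervals are no test of a difference, because COL25A1 entered the test through MEL-18 T334A alone. Even there its level per length, 0.08 ± 0.02 CPM per kilobase, was far under the 95 ± 6.17 of COL13A1. COL17A1, the type XVII collagen of hemidesmosomes, stood at 3.37 ± 0.17, 3.30 ± 0.39 and 3.14 ± 0.09 CPM in the vector, wild-type and T334A groups and was not called. The median of the genes around it on chromosome 10 was 0.20 for MEL-18 T334A against the vector, and with that shift taken out COL17A1 was called lower (-0.31, adjusted p = 0.0352). COL23A1 had at most 2 counts in any library.

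**Figure D2:**
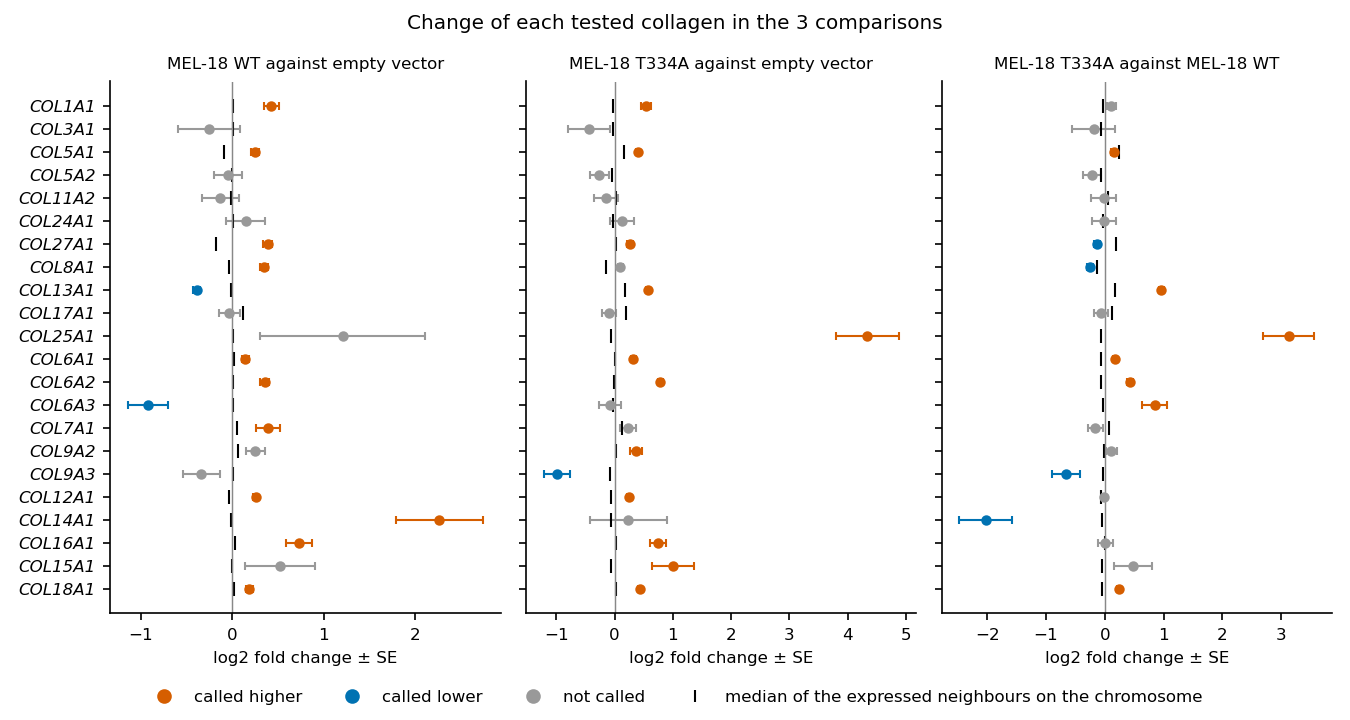
Log2 fold change (horizontal axis) ± SE of each tested collagen in the 3 comparisons, with calls in colour and the median of its expressed chromosomal neighbours as a black tick. COL13A1 lies at -0.39, 0.58 and 0.96 in the 3 panels while its neighbours lie between -0.01 and 0.18.

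Type VI collagen is assembled from the chains COL6A1, COL6A2 and COL6A3, and the first 2 rose while the last did not. COL6A1 stood at 80.9, 86.6 and 83.9 CPM with the vector, 94.8, 89.9 and 93.3 CPM with MEL-18 WT and 105, 110 and 99.3 CPM with MEL-18 T334A. COL6A2, its next protein-coding neighbour on chromosome 21, stood at 39.1, 42 and 41 CPM, at 53.9, 49.97 and 52.4 CPM and at 70.3, 76.1 and 64.1 CPM. For both genes the groups did not overlap and MEL-18 T334A was highest. COL6A1 rose by 0.14 ± 0.04 (adjusted p = 0.00355) and 0.32 ± 0.04 (adjusted p = 5.04e-08) with MEL-18 WT and MEL-18 T334A against the vector, and COL6A2 by 0.36 ± 0.05 (adjusted p = 2.77e-06) and 0.78 ± 0.05 (adjusted p = 4.14e-13). MEL-18 T334A exceeded MEL-18 WT by 0.18 ± 0.04 for COL6A1 (adjusted p = 2.47e-04) and by 0.43 ± 0.05 for COL6A2 (adjusted p = 2.89e-08). The genes around COL6A2 had medians of 0.01, -0.02 and -0.06 in the 3 comparisons.

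The balance of the type VI chains differed between the groups. Per length, COL6A1 exceeded COL6A2 2.14 ± 0.02-fold with the vector, 1.85 ± 0.02-fold with MEL-18 WT and 1.55 ± 0.06-fold with MEL-18 T334A (SD, n = 3), and no library of one group lay within the range of another. With 3 libraries against 3 the exact two-sided permutation test gave p = 0.10 in each comparison, the smallest it allows. COL6A3, the large chain that type VI collagen needs for assembly, stood at 1.19, 1.61 and 1.34 CPM with the vector, 0.59, 0.87 and 0.72 CPM with MEL-18 WT and 1.61, 1.30 and 1.04 CPM with MEL-18 T334A. It fell by 0.92 ± 0.22 with MEL-18 WT (adjusted p = 0.00178), where the libraries did not overlap with the vector, and stood 0.85 ± 0.22 higher with MEL-18 T334A than with MEL-18 WT (adjusted p = 0.00259), while MEL-18 T334A against the vector was not called (-0.07 ± 0.19, adjusted p = 0.784). Per length COL6A1 exceeded COL6A3 158 ± 18.3-fold with the vector, 337 ± 74.3-fold with MEL-18 WT and 209 ± 38.9-fold with MEL-18 T334A. COL6A5 and COL6A6, further alpha chains whose genes adjoin on chromosome 3, had at most 6 and 11 counts in any library and were not tested.

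**Figure D3:**
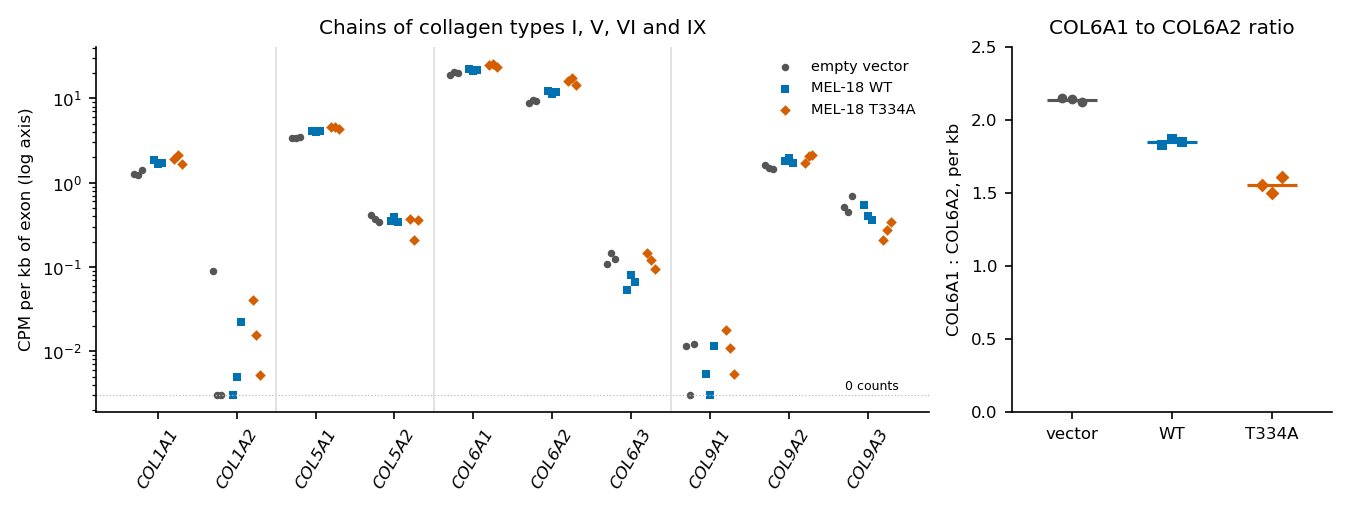
Left, CPM per kilobase of exon (log axis) of the chains of types I, V, VI and IX in each library, with 0 counts on the dotted line; right, the ratio of COL6A1 to COL6A2 per length, with lines at the group means. COL1A2, COL6A3 and COL9A1 lie far below their partner chains, and the ratio falls from 2.14 with the vector to 1.85 with MEL-18 WT and 1.55 with MEL-18 T334A.

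Type VII collagen, the single gene COL7A1, stood at 2.85 ± 0.12 CPM with the vector, 3.74 ± 0.65 CPM with MEL-18 WT and 3.35 ± 0.43 CPM with MEL-18 T334A. It was called higher with MEL-18 WT (0.40 ± 0.13, adjusted p = 0.0228), and not with MEL-18 T334A (0.23 ± 0.13, adjusted p = 0.164), where leaving out MEL-18 T334A replicate 3 gave a call (0.33, adjusted p = 0.0488). MEL-18 WT replicate 1, at 4.47 CPM, was the highest library, and without it the first difference was 0.24 (adjusted p = 0.210). That call was also lost without empty vector replicate 2 (adjusted p = 0.0845), with DESeq2 (0.0627) and with the neighbours' shift taken out (0.0603).

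FACIT collagens were led by COL12A1, which rose with both constructs. COL12A1, a large collagen on the surface of type I fibrils, stood at 127, 127 and 129 CPM with the vector, 150, 153 and 154 CPM with MEL-18 WT and 156, 149 and 148 CPM with MEL-18 T334A. It rose by 0.26 ± 0.03 (adjusted p = 1.41e-07) and 0.24 ± 0.03 (adjusted p = 1.64e-07), and the difference between the MEL-18 groups was -0.01 ± 0.03 (adjusted p = 0.718). COL16A1, a minor fibril-associated collagen, stood at 1.77, 1.90 and 1.53 CPM with the vector, 3.24, 2.80 and 2.62 CPM with MEL-18 WT and 2.64, 3.17 and 2.9 CPM with MEL-18 T334A. Its 6 MEL-18 libraries lay above the vector, by 0.73 ± 0.14 with MEL-18 WT (adjusted p = 2.24e-04) and 0.74 ± 0.14 with MEL-18 T334A (adjusted p = 1.06e-04), and the MEL-18 groups differed by 0.01 ± 0.13 (adjusted p = 0.960).

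The remaining FACIT genes were at a few CPM or less. COL14A1, a FACIT of tendon and skin, had 4, 2 and 2 counts with the vector, 11, 15 and 17 with MEL-18 WT and 5, 1 and 4 with MEL-18 T334A. The MEL-18 WT libraries stood apart from the other 6, at 4.97 times the summed counts of the vector (exact 95% interval 2.31 to 12.2) and 4.19 times those of MEL-18 T334A (interval 2.07 to 9.34). No p is given, and the intervals, which cover counting error only, are no test of a difference, because COL14A1 entered the test through MEL-18 WT alone. The chains of type IX collagen, a cartilage FACIT made of COL9A1, COL9A2 and COL9A3, were at low levels. COL9A2 stood at 4.37 ± 0.29, 5.21 ± 0.34 and 5.62 ± 0.57 CPM in the vector, wild-type and T334A groups, and was called higher with MEL-18 T334A (0.36 ± 0.10, adjusted p = 0.00389) while MEL-18 WT missed the threshold (0.26 ± 0.10, adjusted p = 0.0590). The MEL-18 WT difference was called with library totals (adjusted p = 0.0408), with the compared groups alone (0.0390) and without empty vector replicate 1 (0.0476). COL9A3 stood at 1.28, 1.13 and 1.72 CPM with the vector, 1.34, 1.0 and 0.90 CPM with MEL-18 WT and 0.53, 0.68 and 0.85 CPM with MEL-18 T334A. The MEL-18 T334A libraries lay below the other 6, and COL9A3 fell by 0.99 ± 0.23 against the vector (adjusted p = 8.12e-04). The difference from MEL-18 WT, -0.65 ± 0.24 (adjusted p = 0.0280), was lost with DESeq2 (adjusted p = 0.0722), with the neighbours' shift taken out (0.0664), without MEL-18 WT replicate 1 (0.171) and without MEL-18 T334A replicate 1 (0.126) or 2 (0.0766). An exon of COL9A3 overlaps one of TCFL5 on the opposite strand, and since the strand setting of the counting is not given in the sources used here its counts are uncertain; TCFL5 changed by -0.06 for MEL-18 T334A against the vector (adjusted p = 0.207). COL9A1 had at most 3 counts, and COL19A1, COL20A1, COL21A1 and COL22A1 had at most 6.

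The multiplexin COL18A1, whose C-terminal fragment is endostatin, rose with both constructs. It stood at 68.1, 70.5 and 71.2 CPM with the vector, 81.5, 77.7 and 79.6 CPM with MEL-18 WT and 96.0, 98.9 and 88.1 CPM with MEL-18 T334A, 3 ranges that did not overlap. The changes were 0.19 ± 0.04 for MEL-18 WT (adjusted p = 4.09e-04), 0.43 ± 0.04 for MEL-18 T334A (adjusted p = 5.05e-10) and 0.24 ± 0.04 between them (adjusted p = 6.51e-06). COL18A1 lies near COL6A1 on chromosome 21, with 2 protein-coding genes between them, and its neighbours had medians of 0.02, 0.02 and -0.06. COL15A1, the other multiplexin, had 10, 5 and 8 counts with the vector, 10, 15 and 11 with MEL-18 WT and 17, 21 and 11 with MEL-18 T334A. MEL-18 T334A was called higher than the vector, at 2.02 times its counts (exact 95% interval 1.21 to 3.48; adjusted p = 0.0233). DESeq2 did not call it (adjusted p = 0.0876), nor did edgeR after leaving out MEL-18 T334A replicate 1 (0.0662) or 2 (0.121) or empty vector replicate 2 (0.126). COL26A1 and COL28A1, which stand outside these classes, had at most 4 counts in any library.

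**Figure D4:**
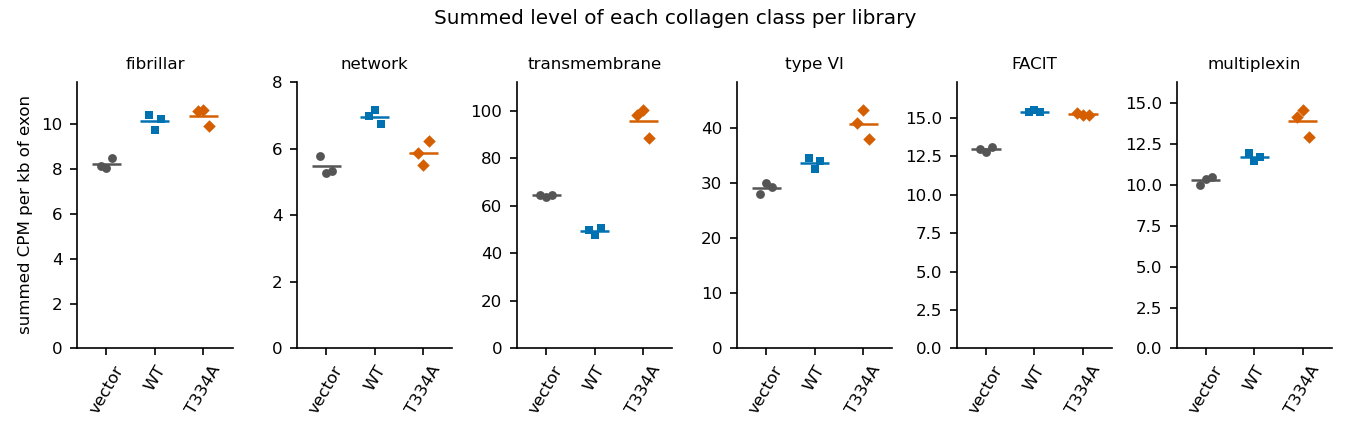
Summed CPM per kilobase of exon of 6 collagen classes in each library (points) with group means (lines), each panel starting at 0. The transmembrane sum runs from 47.7 to 50.7 with MEL-18 WT, 63.7 to 64.6 with the vector and 88.6 to 100.2 with MEL-18 T334A, and the other panels lie higher with both constructs on average.

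Summed over all 38 collagens, the level per length was 131 ± 0.84 CPM per kilobase with the vector, 128 ± 2.77 with MEL-18 WT and 182 ± 9.68 with MEL-18 T334A. In CPM, not scaled by length, the sum ran from 636 to 646 with the vector, 659 to 680 with MEL-18 WT and 817 to 892 with MEL-18 T334A. Leaving out COL13A1, the summed CPM ran from 427 to 438 with the vector, 506 to 520 with MEL-18 WT and 531 to 568 with MEL-18 T334A. In summed CPM both MEL-18 groups thus lay above the vector with or without COL13A1. Per length and with COL13A1, the MEL-18 WT mean did not. Of the 22 tested collagens, 11 were called higher and 2 lower with MEL-18 WT (28.8% of all tested genes were called, 14.4% in each direction), and 12 higher and 1 lower with MEL-18 T334A (45.9%, with 23.4% higher and 22.5% lower). With library totals in place of TMM factors these numbers were 12 and 2, and 13 and 1, while the calls over all genes went from 2124 higher and 2118 lower to 2542 and 1685 for MEL-18 WT, and from 3455 and 3310 to 4227 and 2378 for MEL-18 T334A. The median log2 fold change of the tested collagens was 0.25 in each comparison with the vector, beside -0.0017 and -0.0022 over all tested genes. Between the MEL-18 groups 7 collagens were called higher and 4 lower with MEL-18 T334A, where 40.9% of tested genes were called (21.0% higher; 3090 genes higher and 2944 lower), and the median was -0.0027 beside -0.0033 over all genes. The lower calls there fell from 4 to 2 without MEL-18 WT replicate 1, without MEL-18 T334A replicate 1 and with DESeq2, each with 7 higher. These counts include COL14A1 and COL25A1, which entered the test through the group in which they were high.

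Genes that modify, process, bind and degrade collagen were counted in lists chosen with earlier results of these data known. Of 19 tested hydroxylases, glycosyltransferases and chaperones, 4 were called higher and 5 lower with MEL-18 WT and 5 higher and 9 lower with MEL-18 T334A, with list medians of -0.01 and -0.06, where 28.8% and 45.9% of all tested genes were called. COLGALT2, which adds galactose to hydroxylysine, rose by 0.50 ± 0.07 with MEL-18 WT (adjusted p = 4.50e-06) and 0.68 ± 0.07 with MEL-18 T334A (adjusted p = 1.28e-08). P4HA2, a catalytic subunit of prolyl 4-hydroxylase, rose by 0.23 ± 0.04 and 0.40 ± 0.04. SERPINH1, the collagen chaperone of the endoplasmic reticulum, rose by 0.19 ± 0.03 with MEL-18 WT (adjusted p = 2.95e-05). PLOD2, the lysyl hydroxylase of the ends of collagen chains, stood at 180 ± 7.81 CPM with the vector, 165 ± 8.83 CPM with MEL-18 WT and 118 ± 1.67 CPM with MEL-18 T334A. It was 0.61 ± 0.04 lower with MEL-18 T334A than with the vector (adjusted p = 2.09e-13), beside neighbours at -0.24. P3H3, a prolyl 3-hydroxylase family member, was 0.50 ± 0.06 higher with MEL-18 T334A than with MEL-18 WT (adjusted p = 2.09e-07), and P3H2 0.28 ± 0.03 lower (adjusted p = 4.80e-08) beside neighbours at -0.12. In that comparison 5 of the 19 were higher and 8 lower, where 40.9% of all tested genes were called.

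Among 13 tested procollagen proteases, crosslinking enzymes and fibril regulators, 5 were called higher and 3 lower with MEL-18 WT, 8 and 2 with MEL-18 T334A, and 4 and 3 between the MEL-18 groups, where 28.8%, 45.9% and 40.9% of all tested genes were called. LOXL4, a lysyl oxidase family enzyme that crosslinks collagen, stood at 1.96 ± 0.25 CPM with the vector, 4.09 ± 0.32 CPM with MEL-18 WT and 2.69 ± 0.53 CPM with MEL-18 T334A. The related LOXL1 and LOXL2 went the other way between the MEL-18 groups, higher with MEL-18 T334A by 0.60 ± 0.08 (adjusted p = 5.05e-07) and 0.49 ± 0.03 (adjusted p = 9.80e-13), the latter beside neighbours at 0.33. BMP1, which trims the C-terminal propeptide of fibrillar procollagens, was higher there by 0.55 ± 0.06 (adjusted p = 1.70e-08) beside neighbours at 0.31. PCOLCE2, an enhancer of that cleavage, rose by 0.62 ± 0.09 with MEL-18 WT against the vector (adjusted p = 1.14e-05). FMOD, a small proteoglycan that binds fibrils, had 58 summed counts with the vector, 18 with MEL-18 WT and 14 with MEL-18 T334A, and was called lower in both comparisons (adjusted p = 5.26e-04 and 8.54e-05).

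Of 8 tested collagen receptors, 1 was called higher and 2 lower with MEL-18 WT, 5 higher and 1 lower with MEL-18 T334A, and 4 higher in MEL-18 T334A than in MEL-18 WT, with the other 4 not called. Over all tested genes 28.8%, 45.9% and 40.9% were called, so the receptors' 37.5% with MEL-18 WT and 4 of 8 between the MEL-18 groups lay near the background. DDR1, a receptor tyrosine kinase for collagen, stood at 23.2 ± 1.42, 29.5 ± 1.0 and 34.5 ± 2.56 CPM in the vector, wild-type and T334A groups, and rose by 0.34 ± 0.05 (adjusted p = 1.60e-05) and 0.57 ± 0.05 (adjusted p = 1.36e-09). ADGRG1, an adhesion receptor for type III collagen, moved like COL13A1 in sign: it fell by 0.39 ± 0.07 with MEL-18 WT (adjusted p = 9.73e-05) and rose by 0.33 ± 0.07 with MEL-18 T334A (adjusted p = 1.56e-04). ITGA10, a collagen-binding integrin of chondrocytes, fell by 0.29 ± 0.08 with MEL-18 WT (adjusted p = 0.00875) and by 0.48 ± 0.08 with MEL-18 T334A (adjusted p = 3.55e-05). Of 7 collagen-degrading enzymes 3 were tested. MMP1, the interstitial collagenase, stood at 0.64 ± 0.06 CPM with the vector, 2.39 ± 0.12 CPM with MEL-18 WT and 2.41 ± 0.39 CPM with MEL-18 T334A, and rose by 1.89 ± 0.19 (adjusted p = 9.95e-09) and 1.90 ± 0.19 (adjusted p = 4.22e-09). MMP14 and CTSK were not called in any of the 3 comparisons (lowest adjusted p = 0.292).

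**Figure D5:**
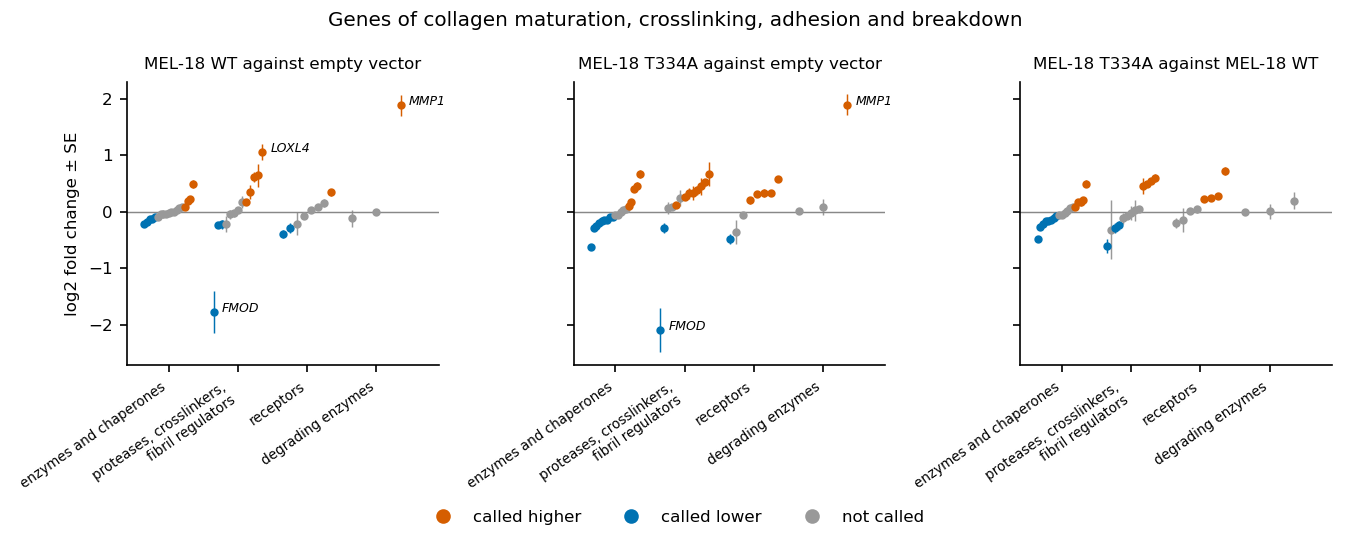
Log2 fold change (vertical axis) ± SE of the tested genes of 4 collagen-related lists in the 3 comparisons, each point a gene and its colour the call. MMP1 lies at 1.89 and 1.90 against the vector, LOXL4 at 1.06 with MEL-18 WT, and FMOD at -1.78 and -2.10.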

How the data were processed

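Per the labels' protocols, poly(A) RNA of each culture went into a TruSeq stranded library, with 3 libraries in each of 3 groups. The authors deposited whole-number read counts per gene symbol, for which the submitters' processing notes name hg19, featureCounts, Subread 1.5.3, STAR 2.5.3a and CASAVA 1.8. Neither annotation, strand setting nor the handling of multi-mapping reads is stated there, so counts of overlapping or near-identical genes are uncertain. MIR3606, MIR936 and MIR711 lie in exons of COL3A1, COL17A1 and COL7A1.

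From these counts, 14738 genes that passed edgeR's filterByExpr, a minimum on low counts, were tested with edgeR 4.0.16 (TMM factors, quasi-likelihood F test, two-sided, group means over all 9 libraries, no replicate term, Benjamini-Hochberg adjustment over all tested genes, called at an adjusted p below 0.05). Each SE was derived by dividing the size of a log2 fold change by the root of its F statistic. CPM use TMM-scaled library sizes, and values are mean ± SD with n = 3 libraries. Ratios of summed counts carry exact 95% binomial intervals. They are given where the larger sum reached 10, and cover counting error alone. Exon lengths came from GENCODE 29 (GRCh38), whose models may differ from the annotation counted, and promoters and gene order from RefSeq tables of GRCh38.p14. Totals of 31643722 to 37005302 counts make 10 counts about 0.29 CPM.

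The named genes were all 38 collagens, PCGF2 and up to 4 called members of each related list and comparison with the largest change, of which a part is printed. The members and lists were chosen with earlier results of these data known. Alternatives were DESeq2 1.42.0, RLE factors, library totals, no filter, a filter of 1 CPM in 3 or more libraries, a replicate block, the compared groups alone, an offset for the median shift of the 20 expressed genes on each side (taken as known, so its error is left out), and leaving out each library. The edgeR test was run on simulated data. The ratio was checked on known input, without a check of its interval. Replicate pairs differed by 1.49 to 3.98 in chi-square per degree of freedom, so none was a duplicate.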

Additional observations from a re-analysis of the deposited data

Results flagged for a closer look

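COL13A1 was the tested collagen whose change against the vector was called in opposite directions in the 2 MEL-18 groups, lower with MEL-18 WT and higher with MEL-18 T334A. The difference between the MEL-18 groups was itself tested and came to 0.96 on the log2 scale (edgeR adjusted p = 1.67e-17). All 3 MEL-18 WT libraries lay below and all 3 MEL-18 T334A libraries above the vector range. The comparisons with the vector share its libraries.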

How the results depend on the processing

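The number of called genes and of called collagens stayed within 1.5 times the reported number in each comparison under every alternative tried. Leaving out 1 library gave 12 to 14 collagens for MEL-18 WT and for MEL-18 T334A against the vector (13 reported in each) and 9 to 11 between the MEL-18 groups (11 reported), and 3430 to 3624, 5843 to 6857 and 4953 to 6315 genes. Among collagen differences called under the reported or the alternative setting, the direction of 1 turned. This was COL5A1 between the MEL-18 groups, at -0.0803 with the neighbours' shift taken out (adjusted p = 0.124), and the cause was not tested. Uncalled differences could also change sign, such as COL12A1 between the MEL-18 groups, from -0.01 to 0.04 with the same offset. Over single collagens and comparisons, settings that kept all libraries lost 8 calls, that of COL5A1 included, and added 5, with 501 on the same side of the threshold, and leaving out a library lost 12 and added 5, with 379 on the same side. COL3A1, COL14A1, COL15A1 and COL25A1 were not tested under the filter of 1 CPM in 3 libraries. Same-numbered libraries did not deviate together (correlations of -0.079 to 0.014 over 9 pairs, against -0.073 to 0.10 over 18 other pairs). With so few libraries per group, this cannot show whether same-numbered cultures were handled together. With a replicate block 3963, 6496 and 5757 genes and 13, 13 and 11 collagens were called in the 3 comparisons. Genes with a few counts per library, such as COL14A1 and COL25A1, are limited by counting error, and the 16 collagens with fewer counts were not tested.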

Other observations

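COL1A2 was uneven within the vector group, with 16, 0 and 0 counts. It was the 1 gene of all 26364 with at least 10 counts in empty vector replicate 1 and 0 in the other 2 vector libraries. The same search, chosen after its values were seen, found 1 gene for MEL-18 T334A replicate 1 and 0 genes for each of the 7 other libraries.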
